A study of Mus musculus with 9 samples.

Results

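The insulin-like growth factor (IGF) genes described here were the ligand gene Igf1, the receptor gene Igf1r and the binding protein genes Igfbp2, Igfbp3, Igfbp4, Igfbp5, Igfbp6 and Igfbp7. These 8 genes were chosen by symbol, with earlier results of these data known. All 8 were found among the 52636 gene identifiers of the deposited count matrix. They were followed by droplet-based single-cell RNA sequencing in thyroids of male C57BL/6 mice, through every cell label that the authors deposited and through 3 antibody groups. Group RW received an isotype control antibody against ragweed at 40 mg/kg. Group aJ1aJ2 received antibodies that block the Notch ligands Jag1 and Jag2, at 20 mg/kg each. Group aN1aN2 received antibodies that block the receptors Notch1 and Notch2, at 5 mg/kg and 10 mg/kg. Each mouse had 1 intraperitoneal injection and the labels give 7 days of treatment. The age was 10 to 12 weeks in the design text and 10 to 14 weeks in the protocol. No genotype other than the strain was named, so all groups share it. Each group had 3 samples and each sample was a pool of thyroids from 6 mice, so that single mice could not be compared and p-values measure the spread between pools. By their titles, the aN1aN2 samples form a set of their own, apart from the other 2 sets that hold the RW and aJ1aJ2 samples. For aN1aN2, treatment and this set cannot be told apart.

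IGF1 is a secreted growth factor that acts through the receptor tyrosine kinase IGF1R and, behind it, through the PI3K and Akt pathway. The binding proteins IGFBP2 to IGFBP6 hold IGFs with high affinity in serum and in the matrix around cells, and proteases release the ligand by cutting them. IGFBP7 binds IGFs weakly and is known as a matrix protein of blood vessels. In thyroid cell culture, IGF1 or insulin acts together with thyrotropin on follicular cell growth.

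The members lie on 6 chromosomes (GENCODE annotation, GRCm38). Igf1 is at chr10:87858265-87937042 and Igf1r at chr7:67952827-68233668. Igfbp2 (chr1:72824503-72852474) and Igfbp5 (chr1:72857932-72874884) are tail-to-tail neighbours, with 5457 bases between their ends. Igfbp3 (chr11:7206086-7213923) and Igfbp4 (chr11:99041244-99054392) are both on chromosome 11 but far apart. Igfbp6 is at chr15:102144362-102149511 and Igfbp7 at chr5:77349240-77408041. The promoters shown are those of the binding protein genes with the largest changes in opposite directions after aN1aN2, Igfbp3 and Igfbp5, and that of the ligand gene. For Igf1 it belongs to a RefSeq transcript start that lies inside the gene span given above. Each run holds the 250 bases before the RefSeq transcript start (GRCm38.p6), read 5′ to 3′ on the gene's strand: chr11:7213924-7214173 (minus strand), chr1:72874866-72875115 (minus strand) and chr10:87860861-87861110 (plus strand). Capitals mark a TATA motif in Igfbp3 and the RBPJ core in Igf1. RBPJ is the DNA-binding protein of the Notch pathway.
Igfbp3: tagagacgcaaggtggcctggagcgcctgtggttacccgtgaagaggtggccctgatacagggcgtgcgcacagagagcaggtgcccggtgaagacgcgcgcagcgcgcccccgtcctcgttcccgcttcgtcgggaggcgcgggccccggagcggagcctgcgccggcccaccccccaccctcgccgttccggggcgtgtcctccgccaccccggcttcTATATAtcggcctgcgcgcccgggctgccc
Igfbp5: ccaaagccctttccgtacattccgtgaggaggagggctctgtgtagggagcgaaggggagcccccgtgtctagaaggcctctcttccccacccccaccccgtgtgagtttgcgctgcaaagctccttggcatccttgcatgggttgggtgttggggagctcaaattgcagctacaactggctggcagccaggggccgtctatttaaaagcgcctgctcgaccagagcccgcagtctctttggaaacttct
Igf1: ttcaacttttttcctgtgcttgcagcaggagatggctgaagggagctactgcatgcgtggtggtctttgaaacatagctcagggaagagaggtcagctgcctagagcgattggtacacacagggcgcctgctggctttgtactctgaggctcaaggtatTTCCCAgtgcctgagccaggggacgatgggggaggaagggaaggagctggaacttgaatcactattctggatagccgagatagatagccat
The RBPJ core TGGGAA was searched on both strands in windows of 300 bases, which add the 50 bases after the start. It was found in 2 of the 9 windows of the 8 members (Igfbp2 has a pair of windows), those of Igf1 and Igf1r, against 25.6% of 32851 RefSeq windows. In Igf1 it reads TTCCCA and starts 91 bases before the transcript start, and in Igf1r it lies 30 bases after the start. The bases before the annotated start of the Igf1 gene span were not searched. TATAAA or TATATA, also on both strands, was found in 3 of the 9 windows, against 17.1% of all windows. The Igfbp3 motif starts 30 bases and the Igfbp4 motif 28 bases before the transcript start, and that of Igfbp6 lies 148 bases before it. The Igfbp5 window held neither motif. A match describes letters in these windows and no binding was measured.

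The matrix held 10186 cells with 16 labels, 583 to 1805 cells and 3013324 to 11880793 unique molecular identifiers (UMIs, each a counted RNA molecule) per sample. The median cell held 2098 to 2237 UMIs in the aN1aN2 samples and 2823 to 4149 in the others. The labels are short codes, checked here against marker lists summed as CPM, which are UMI counts scaled to a common library size. EC1 and EC4 led in vascular endothelial markers, EC3 in lymphatic markers, F in fibroblast markers, SM in markers of mural cells, S in those of Schwann cells and M in those of macrophages. Th1 led in thyrocyte markers. Th3 held 81570 CPM of them too, but also 27608 CPM of C cell and 15874 CPM of skeletal muscle markers. Th2 held 28305 CPM of thyrocyte and 19473 CPM of neutrophil markers, so it is called by its code only. Across libraries, 15 barcodes occurred more than once, in 30 cells.

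Counts of each gene were summed per sample and label and are given as CPM after TMM scaling, in samples with at least 20 cells of the label. Because the labels may have been made with these genes, differences between labels are described without a test. The kit reads the 3′ end, so that a gene is compared with itself across labels and not with another gene. The ligand gene Igf1 had its highest level in the fibroblast-marked label F (469 ± 179 CPM, mean ± SD over 9 samples). It was next highest in the macrophage-marked M (185 ± 93.6 CPM, n = 6), and F was above M in 6 of the 6 samples that had both, although the ranges overlapped. All other labels had means at or below 47.4 CPM, the mean in EC4. F held 43.2% of all Igf1 UMIs and Th1, whose cells had the most UMIs by their median, 32.2%.

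The receptor gene Igf1r was found in most labels. Its mean was 580 CPM in Th2, from 15 UMIs in the 2 aJ1aJ2 samples with enough cells (655 and 505 CPM, or 264 and 215 CPM on total UMIs without TMM). SM had the highest mean on total UMIs, in cells of at least 1000 UMIs and without the 5% of cells with most UMIs, so no top label is named. The other leading means were those of SM (313 ± 144 CPM, n = 6), EC4 (190.5 ± 93.7 CPM, n = 9) and Th1 (147 ± 45.8 CPM, n = 9). Neighbours in this order overlapped in their ranges. In erythroid-marked Eryth2 cells, which serve as a measure of free RNA in the droplets, 0.183% of 1092 cells had an Igf1r UMI. Th1 held 55.1% of all Igf1r UMIs.

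Each binding protein gene had its own set of labels, as the plot of levels by label shows. Igfbp3, the main IGF carrier of serum, was highest in the endothelial labels EC4 (6581 ± 1783 CPM, n = 9) and EC1 (3924 ± 690 CPM, n = 9), and EC4 was above EC1 in 9 of 9 samples. Igfbp4, whose product is cut by the protease PAPP-A, was highest in F (3152 ± 732 CPM, n = 9) and SM (2108 ± 1285 CPM, n = 6). Igfbp5, a matrix-associated binding protein, had means of 1874 ± 395 CPM in SM, 1676 ± 1390 CPM in F and 1475 ± 1070 CPM in the lymphatic-marked EC3, which did not separate. Igfbp6, which prefers IGF2 over IGF1, was found in F (2001 ± 540 CPM, n = 9) and S (1116 ± 1393 CPM, n = 4). Its mean was at or below 36.4 CPM in every other label, and F held 90.7% of its UMIs. Igfbp7 was highest in EC1 (7583 ± 2176 CPM, n = 9), then in EC4 (5540 CPM), SM (4908 CPM), EC2 (2935 CPM), F (2003 CPM), S (1690 CPM) and EC3 (1430 CPM). The next label was Th1 at 149 CPM, and its range did not overlap that of EC3. An Igfbp7 UMI was found in 100% of the EC1 cells and in 2.56% of the Eryth2 cells.

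**Figure D1:**
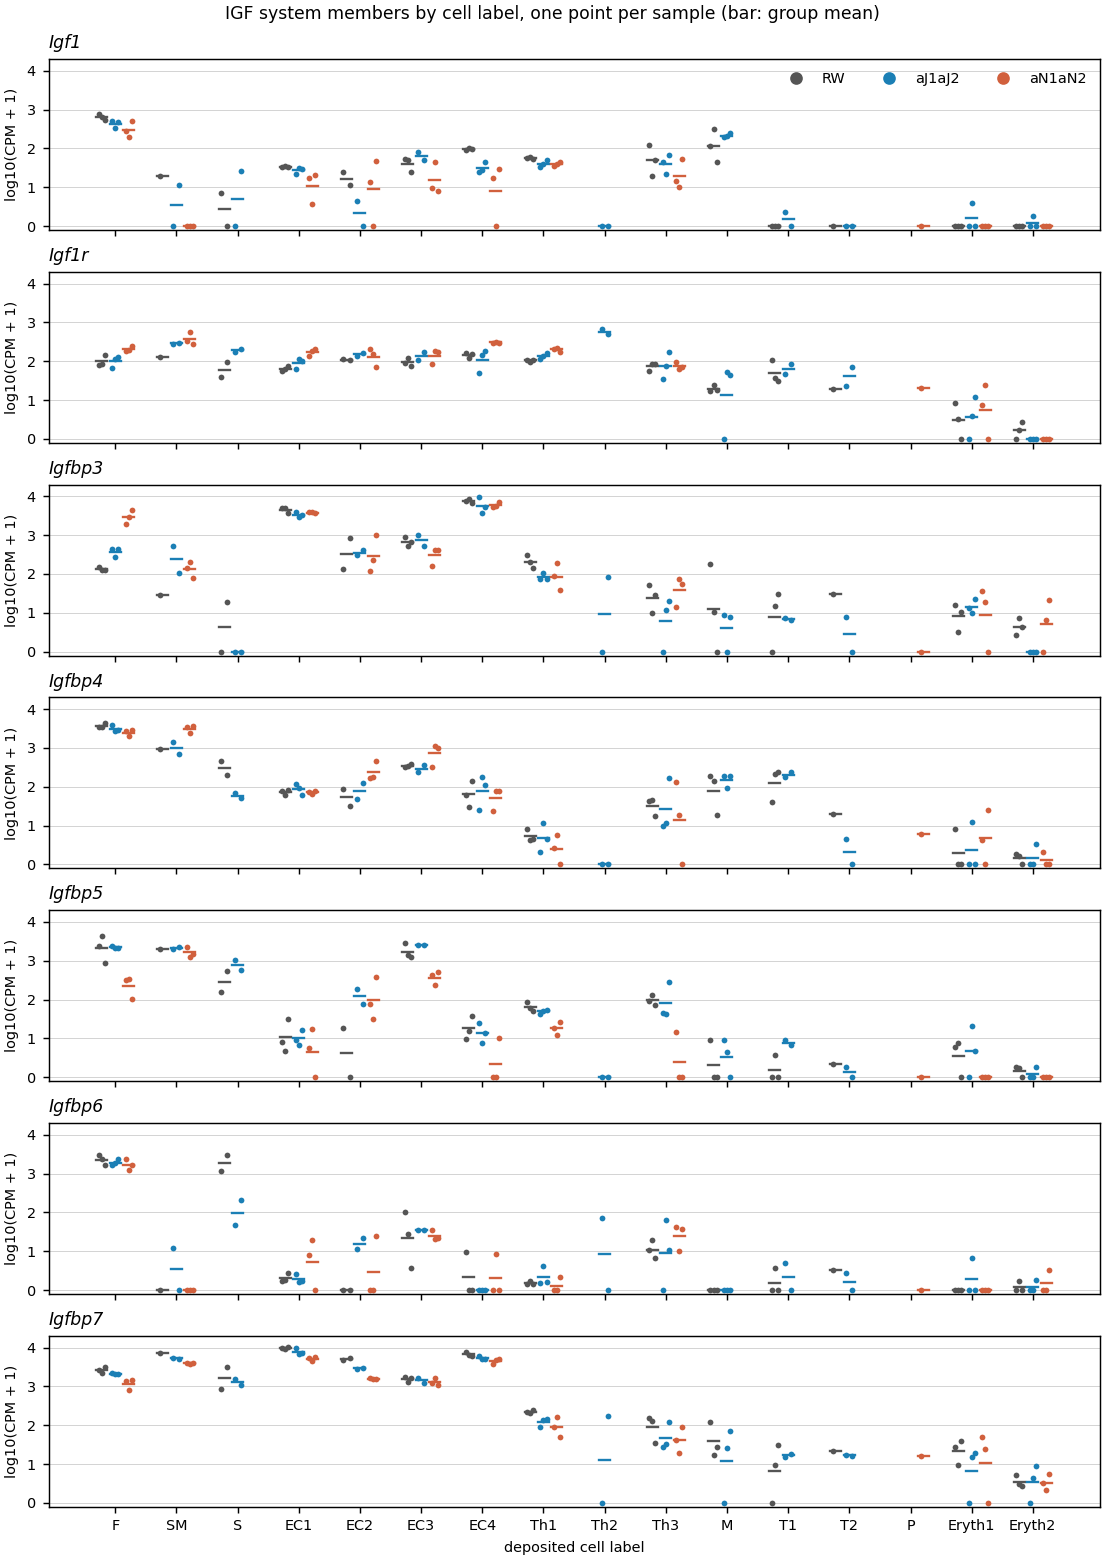
Level of each member by deposited cell label, as log10(CPM + 1) of counts summed per sample; each point is a sample with at least 20 cells of the label and each bar the mean of the plotted values of a group. Igfbp3 and Igfbp7 stand highest in EC1 and EC4, Igfbp6 stands high in F and S alone, and Igf1r is spread over most labels.

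Igfbp2 was close to absent. The whole matrix held 53 Igfbp2 UMIs, of which 50 came from 1 cell labelled S in RW sample 2. That cell had 6005 UMIs, none of them from the 5 Schwann cell markers, 9 from thyrocyte markers and 6 from lymphatic markers. The other 3 UMIs were in 1 EC3 cell of RW sample 2, which held 120349 UMIs, 399 of them from fibroblast markers, and in 1 T1 cell of aJ1aJ2 sample 3. Igfbp2 passed the filter on low counts in no label and has no test. Of the family genes outside the 8, Igf2 had 337 UMIs in EC3, and Igfbp1 had 0 UMIs in all 16 labels.

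The genes with the most similar pattern were sought by Pearson correlation of log2(CPM + 10) over the 13 labels with at least 50 RW cells, among 7191 genes that reached 50 CPM in at least 1 label. These points share libraries and depth, and the values are descriptive. Igfbp7 was closest to the basement membrane genes Col4a1 (r = 0.993), Col4a2 (r = 0.984) and Hspg2 (r = 0.983). Igfbp6 was closest to the matrix gene Ogn (r = 0.995), to the collagen gene Col5a3 (r = 0.991) and to the collagen cross-linking enzyme gene Lox (r = 0.984). Igfbp3 was closest to Plvap (r = 0.982), which encodes the diaphragm protein of fenestrated capillaries, to Kctd12b (r = 0.971) and to Mcc (r = 0.968). Igfbp5 went with Prelp (r = 0.976), Lbp (r = 0.967) and Bmp4 (r = 0.955), and Igfbp4 with Chst12 (r = 0.959), Ecm1 (r = 0.915) and Rcn3 (r = 0.909). For Igf1r the closest genes were Clock (r = 0.980), Zfand5 (r = 0.970) and Trove2 (r = 0.963), and for Igf1 the close genes included Rhoq (r = 0.922) and Selenon (r = 0.918).

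After aN1aN2, the members changed in 20 of the 37 pairs of a label and a member that could be tested against RW, 7 of them upward and 13 downward. That is 54.1% of the pairs, where 17.2% of all genes were called when each label is weighted by its number of members. The members were chosen with earlier results of these data known, so the difference between these shares is not a result about the family. The tests were edgeR quasi-likelihood tests over all genes of a label, with Benjamini-Hochberg adjustment and a call at an adjusted p under 0.05. Igf1r rose in 4 of 7 labels and Igfbp7 fell in 5 of 7, in labels where 17.1% of all genes were called on average. Igf1 fell in 3 of 4, Igfbp5 fell in 3 of 6, Igfbp4 was called in 3 of 5 (2 up, 1 down) and Igfbp3 in 2 of 6 (1 up, 1 down). These calls include falls of Igfbp3 and Igfbp7 in Th1. There 98.5% of the Igfbp7 UMIs in RW and 96.0% in aN1aN2 came from cells with an endothelial marker UMI, as did 99.1% and 96.8% of the Igfbp3 UMIs. Igfbp6 was called in neither of the 2 labels where it was tested. The plot of changes shows these estimates beside those after aJ1aJ2. Both comparisons use the same RW samples, and so their values stand side by side and are not independent.

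**Figure D2:**
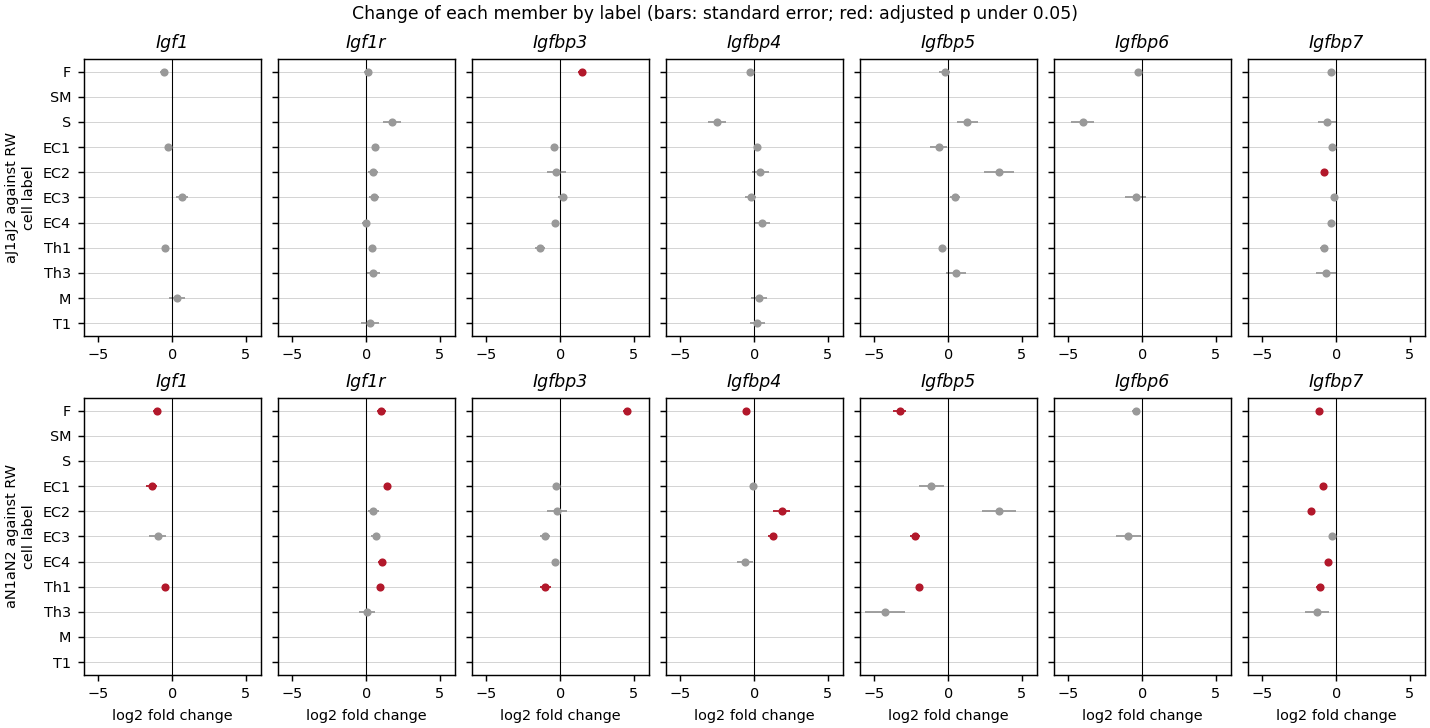
Log2 fold change of each member in each testable label, aJ1aJ2 against RW in the upper row and aN1aN2 against RW in the lower row; points are edgeR estimates, bars their standard errors, and red marks an adjusted p under 0.05. After aN1aN2 the estimates for Igf1r lie above 0 and those for Igfbp7 below 0 in 7 of 7 labels; after aJ1aJ2 the Igf1r estimate in EC4 lies at 0 (0.0019, SE 0.29).

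The fibroblast-marked cells (label F) had the most members called: 6 of 7 after aN1aN2, where 19.8% of all 4840 genes tested in that label were called. The largest change was that of Igfbp3. It stood at 150.0, 123 and 128 CPM in RW samples 1, 2 and 3, at 432, 274 and 432 CPM in aJ1aJ2 samples 1, 3 and 4, and at 1943, 2886 and 4495 CPM in aN1aN2 samples 1, 2 and 3. Every aN1aN2 sample was above every aJ1aJ2 sample, and every aJ1aJ2 sample above every RW sample. The rise after aN1aN2 was 23.1-fold (log2 4.53, SE 0.30, adjusted p = 1.73e-08 by the edgeR quasi-likelihood test). It was called in all 18 alternative analyses, where the log2 change ran from 4.13 to 4.77.

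More F cells had the Igfbp3 transcript in the aN1aN2 samples. An Igfbp3 UMI was found in 22 of 120 F cells in RW (18.3%, exact 95% interval 11.9% to 26.4%), in 54 of 297 in aJ1aJ2 (18.2%, 14.0% to 23.0%) and in 43 of 121 in aN1aN2 (35.5%, 27.0% to 44.8%). These intervals cover counting error only. By sample the share was 9.30%, 25.5% and 19.2% in RW and 38.3%, 29.3% and 39.4% in aN1aN2, so the groups did not overlap. The aN1aN2 cells were shallower, with a median of 3153 UMIs against 7665 in RW, and with each cell thinned to 1000 UMIs the shares were 7.38% in RW, 10.3% in aJ1aJ2 and 28.8% in aN1aN2. Thinning left out 11, 28 and 15 shallower F cells. In Eryth2 cells 1.37% had an Igfbp3 UMI at a median of 7945 UMIs per cell. The UMIs were concentrated in few cells, with the top 5 F cells holding 73.9% of them in RW, 47.5% in aJ1aJ2 and 39.7% in aN1aN2. Endothelial transcripts were low in F, where the 6 endothelial markers summed to 15.4 to 33.3 CPM in RW and 18.9 to 52.4 CPM in aN1aN2. Of the 43 Igfbp3-positive aN1aN2 cells 4 also held an endothelial marker UMI, and without all such cells the log2 change was 4.27.

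**Figure D3:**
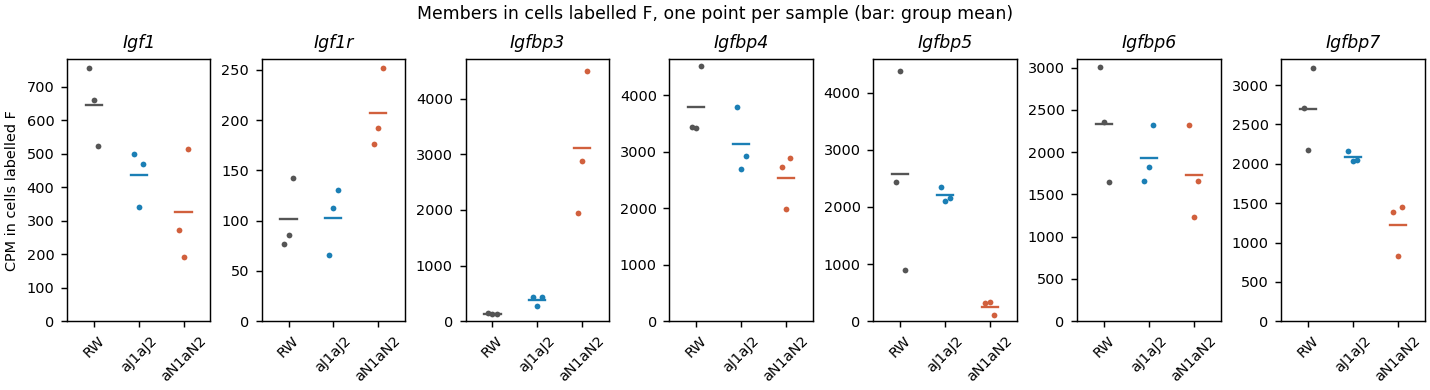
CPM of 7 members in cells labelled F, with a point per sample and a bar at each group mean; every axis starts at 0 and each gene has its own scale. Igfbp3 is highest in the 3 aN1aN2 samples, and Igfbp5 and Igfbp7 are lowest in them.

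Igfbp5 moved the other way in the same cells. It had 2446, 4376 and 898 CPM in the RW samples, 2351, 2100.0 and 2155 CPM in aJ1aJ2 and 322, 332 and 105 CPM in aN1aN2. The RW samples spread widely, and even the lowest of them was above all aN1aN2 samples. The fall after aN1aN2 was 9.84-fold (log2 -3.30, SE 0.44, adjusted p = 2.73e-05, edgeR quasi-likelihood test), and all 18 alternatives kept the call. An Igfbp5 UMI was found in 61.7% of F cells in RW, 55.9% in aJ1aJ2 and 25.6% in aN1aN2, and after thinning to 1000 UMIs in 47.2%, 39.3% and 14.8%. Among the Igfbp3-positive cells, 72.7% of 22 also had Igfbp5 in RW and 27.9% of 43 did in aN1aN2. In sums over a label, fewer cells of a kind and less RNA per cell cannot be told apart.

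The other calls in F were smaller. Igfbp7 had 2711, 2177 and 3212 CPM in RW and 1388, 823 and 1457 CPM in aN1aN2, with no overlap. It fell by 2.21-fold (log2 -1.15, SE 0.22, adjusted p = 0.000936, edgeR quasi-likelihood test). Igf1 had 754, 661 and 523 CPM in RW and 271, 192 and 513 CPM in aN1aN2, where sample 3 came close to the lowest RW sample. Its fall of 2.06-fold (log2 -1.04, SE 0.28, adjusted p = 0.0113) was not called without aN1aN2 sample 1 (adjusted p = 0.0585) or sample 2 (0.0726). Igf1r, the receptor, had 76.9, 85.5 and 143 CPM in RW and 177, 192 and 251 CPM in aN1aN2, a rise of 2.05-fold (log2 1.04, SE 0.30, adjusted p = 0.0182). That call was lost without RW sample 1, RW sample 2, aN1aN2 sample 2 or aN1aN2 sample 3 (adjusted p of 0.0592 to 0.0885), and with DESeq2. Igfbp4 had 3438, 3423 and 4509 CPM in RW and 2726, 1984 and 2892 CPM in aN1aN2. Its fall (log2 -0.58, adjusted p = 0.04996) lay at the threshold, and 7 of 18 alternatives kept it. It was lost without any of the 3 RW samples, aJ1aJ2 samples 3 or 4, or aN1aN2 samples 1 or 2 (adjusted p of 0.0550 to 0.195). Igfbp6 had 3011, 2355 and 1644 CPM in RW and 2315, 1234 and 1656 CPM in aN1aN2, with overlap and no call (log2 -0.43, adjusted p = 0.245). Over F, the fibroblast list summed to 38733 to 49475 CPM in RW and 35340 to 42429 CPM in aN1aN2. The dissociation response list summed to 641 to 1031 CPM and 1168 to 1489 CPM, and the mural list to 157 to 338 CPM and 113 to 126 CPM, both without overlap. Their part in these changes was not tested.

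In the endothelial-marked cells of EC1, 3 of 6 members were called after aN1aN2, beside 17.8% of all genes. Igfbp7 had 9512, 9348 and 10405 CPM in RW, 9499.9, 6743 and 7333 CPM in aJ1aJ2 and 5357, 4473 and 5580.0 CPM in aN1aN2. All RW samples were above all aN1aN2 samples, a fall of 1.90-fold (log2 -0.93, SE 0.12, adjusted p = 9.6e-06, edgeR quasi-likelihood test). Igf1r moved oppositely, from 55.9, 61.6 and 72.2 CPM in RW to 137, 177 and 204 CPM in aN1aN2. That rise was 2.68-fold (log2 1.42, SE 0.21, adjusted p = 3.21e-05), and it was called in all 19 alternatives, as was the fall of Igfbp7. Igf1 was low in EC1, with 31.3, 33.9 and 32.7 CPM in RW and 16.0, 2.68 and 19.1 CPM in aN1aN2, the latter resting on 14 UMIs over the 3 samples. The Igf1 call (log2 -1.38, SE 0.37, adjusted p = 0.0123) was lost without aN1aN2 sample 2 (log2 -0.91, adjusted p = 0.103). Igfbp3 kept 3836, 3961 and 3626 CPM in aN1aN2 against 5051, 4909.8 and 3739 CPM in RW and was not called (log2 -0.26, adjusted p = 0.169). The endothelial marker list itself summed to 11470 to 12051 CPM in RW and 7291 to 7582 CPM in aN1aN2 in EC1. Macrophage markers summed to 93.9 to 241 CPM and 5.36 to 12.7 CPM, and thyrocyte markers to 720.0 to 1001 CPM and 1330.1 to 1956 CPM, also without overlap. The part of these 3 lists in the Igf1, Igf1r and Igfbp7 changes was not tested.

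In the other endothelial labels the Igf1r and Igfbp7 estimates had the same signs. In EC4, 2 of 4 members were called, beside 21.1% of all genes. Igf1r had 159, 119 and 151 CPM in RW and 300.3, 319 and 295 CPM in aN1aN2, a 2.08-fold rise (log2 1.06, SE 0.27, adjusted p = 0.00525, edgeR quasi-likelihood test). The lowest aN1aN2 sample was above the highest RW sample by more than the whole RW range, and the call was kept in 18 of 19 alternatives, all but DESeq2 (adjusted p = 0.0809). Igfbp7 in EC4 fell from 7616, 6596 and 5958 CPM to 3799, 4830.2 and 4941 CPM (log2 -0.57, SE 0.16, adjusted p = 0.0117), a call lost without RW sample 1 (adjusted p = 0.0864) or aN1aN2 sample 1 (0.106). In all, 16 of 19 alternatives kept that call. Endothelial markers in EC4 summed to 13162 to 14232 CPM in RW and 9787 to 10230 CPM in aN1aN2. The dissociation response list summed to 856 to 1177 CPM and 1223 to 1418 CPM, macrophage markers to 29.6 to 141 CPM and 5.56 to 9.52 CPM, and Schwann and nerve markers to 44.1 to 800.1 CPM and 5.56 to 22.8 CPM. The part of these 4 lists in the EC4 changes was not tested. Igf1 was not testable there, with 27 UMIs in RW (88.3, 104 and 94.1 CPM) and 6 UMIs in aN1aN2 (16.7, 0 and 28.6 CPM).

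In EC2, 2 of 5 members were called, beside 15.5% of all genes. Igfbp7 had 4763 and 5353 CPM in the 2 RW samples with enough cells, 2781 and 2996 CPM in 2 aJ1aJ2 samples and 1608, 1504 and 1536 CPM in the 3 aN1aN2 samples. The groups did not overlap, and the fall from RW to aN1aN2 was 3.26-fold (log2 -1.70, SE 0.16, adjusted p = 8.5e-06, edgeR quasi-likelihood test), larger than its change in the other 6 labels tested, although the labels were not compared by a test. Igfbp4 rose in EC2, from 88.6 and 31.1 CPM to 167, 180.5 and 473 CPM (log2 1.87, SE 0.57, adjusted p = 0.0384). This call was kept in 13 of 18 alternatives. It was lost without RW sample 2 (adjusted p = 0.118) or aN1aN2 sample 3 (0.160). In EC2 endothelial markers summed to 7056 to 7906 CPM in RW and 5459 to 6256 CPM in aN1aN2, and the dissociation response list to 913 to 1158 CPM and 1253 to 1441 CPM. Thyrocyte markers summed to 788 to 804 CPM and 1016 to 1938 CPM, and none of these 3 lists overlapped. Mural markers summed to 705 to 2588 CPM and 1504 to 8650 CPM, and the part of all 4 lists in the Igfbp4 and Igfbp7 changes was not tested. Igfbp5 in EC2 had 17.7 and 0 CPM in RW (3 UMIs), 191 and 77.6 CPM in aJ1aJ2 and 77.2, 30.1 and 378 CPM in aN1aN2, and was not called against RW (adjusted p = 0.0912 and 0.0550).

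**Figure D4:**
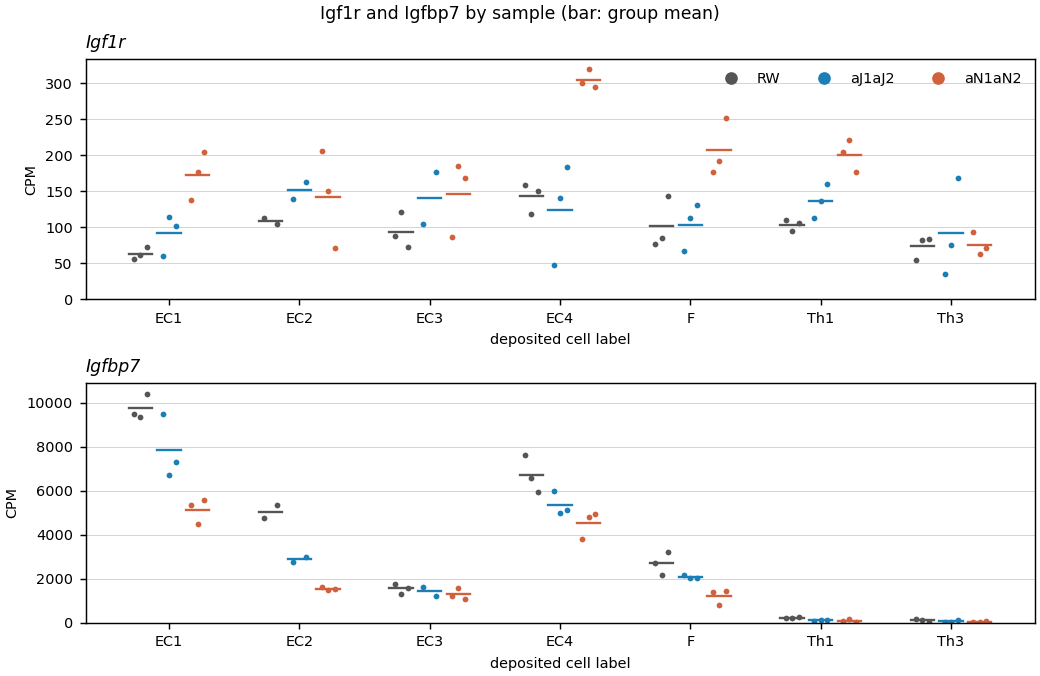
CPM of Igf1r (upper panel) and Igfbp7 (lower panel) in 7 labels, with a point per sample and a bar at each group mean; both axes start at 0. In EC1, EC4, F and Th1 all aN1aN2 samples are above all RW samples for Igf1r and below them for Igfbp7. In Th1, 98.5% of the Igfbp7 UMIs in RW and 96.0% in aN1aN2 came from cells with an endothelial marker UMI.

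In the lymphatic-marked EC3, 2 of 7 members were called, beside 5.91% of all genes. Igfbp5 had 2924, 1400.3 and 1237 CPM in RW, 2492 and 2585 CPM in 2 aJ1aJ2 samples and 422, 236 and 503 CPM in aN1aN2. Every aN1aN2 sample was below every other sample, and the fall from RW was 4.82-fold (log2 -2.27, SE 0.33, adjusted p = 0.000776, edgeR quasi-likelihood test, called in all 18 alternatives). Igfbp4 had 325, 333 and 393 CPM in RW and 327, 1125 and 1012 CPM in aN1aN2, where sample 1 lay inside the RW range. Its call (log2 1.25, SE 0.32, adjusted p = 0.0322) was kept in 8 of 18 alternatives. It was lost without RW samples 1 or 2, aJ1aJ2 samples 3 or 4, or aN1aN2 samples 2 or 3 (adjusted p of 0.0595 to 0.164). The marker sums of this label moved as well. Lymphatic markers summed to 1923 to 3591 CPM in RW and 789 to 1686 CPM in aN1aN2, fibroblast markers to 72.1 to 1014 CPM and 25.6 to 43.0 CPM, and mural markers to 2944 to 4583 CPM and 838 to 1067 CPM. The vascular endothelial list summed to 3221 to 4525 CPM in RW and 5041 to 6289 CPM in aN1aN2. Schwann and nerve markers summed to 12.0 to 52.5 CPM and 0 to 8.60 CPM, and macrophage markers to 8.01 to 341 CPM in RW and 0 CPM in every aN1aN2 sample. The part of these 6 shifts in the Igfbp4 and Igfbp5 changes was not tested. Without EC3 cells that held a fibroblast marker UMI the Igfbp5 call was kept, and that of Igfbp4 was not (log2 1.38, adjusted p = 0.0921).

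Thyrocytes (label Th1) had all 5 testable members called after aN1aN2, beside 34.4% of all genes in that label. Igf1r had 109, 95.2 and 106 CPM in RW, 113, 137 and 159 CPM in aJ1aJ2 and 204, 221 and 176 CPM in aN1aN2. The 3 groups did not overlap, and the rise from RW to aN1aN2 was 1.94-fold (log2 0.95, SE 0.13, adjusted p = 5.68e-05, edgeR quasi-likelihood test, called in all 19 alternatives). Igfbp5 fell from 86.3, 59.4 and 49.9 CPM to 17.6, 11.5 and 25.4 CPM, or 3.86-fold (log2 -1.95, SE 0.26, adjusted p = 4.01e-05), and was also called in all 19. Igf1 had 54.6, 58.7 and 50.9 CPM in RW and 34.0, 38.2 and 44.7 CPM in aN1aN2, a smaller fall (log2 -0.51, SE 0.16, adjusted p = 0.0234). It was lost without RW samples 1 or 2 or aN1aN2 samples 1 or 2 (adjusted p of 0.0515 to 0.131), and with DESeq2 (0.0696).

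Igfbp3 and Igfbp7 in Th1 went with endothelial transcripts. Igfbp3 had 313, 201 and 141 CPM in RW and 85.6, 188 and 37.5 CPM in aN1aN2 (log2 -1.01, SE 0.37, adjusted p = 0.0445), with overlapping groups. That call was lost without RW samples 1 or 2, aJ1aJ2 sample 4 or aN1aN2 samples 1 or 3 (adjusted p of 0.0530 to 0.233), and 11 of 18 alternatives kept it. Igfbp7 had 224, 203 and 240.0 CPM and 91.1, 162 and 48.4 CPM (log2 -1.10, SE 0.27, adjusted p = 0.00513), without overlap. Cells with a UMI of an endothelial marker made up 39.3% of Th1 cells in RW and 26.7% in aN1aN2, and they held 99.1% and 96.8% of the Igfbp3 UMIs and 98.5% and 96.0% of the Igfbp7 UMIs. The same cells held 62.3% and 55.9% of the Igf1r UMIs, 65.1% and 55.6% of those of Igfbp5 and 55.6% and 64.2% of those of Igf1. Cells with more UMIs are more likely to hold a marker UMI, so the share of cells is not their share of all UMIs. The values of these 3 genes are therefore not read as enrichment. The median Th1 cell held 12535 to 22558 UMIs in the RW samples and 5737 to 7558 in the aN1aN2 samples. Endothelial markers summed to 323 to 472 CPM in Th1 in RW and 83.4 to 325 CPM in aN1aN2, and thyrocyte markers to 92094 to 98642 CPM and 98253 to 119900 CPM. Schwann and nerve markers summed to 246 to 280.1 CPM and 110.3 to 133 CPM, without overlap, and their part in the Th1 changes was not tested.

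The CPM of the next 2 genes are on total UMIs without TMM. Without these cells, an alternative chosen after the data were seen, Th1 had 4.23 to 7.13 CPM of Igfbp3 in RW and 6.17 to 10.6 CPM in aN1aN2, too few counts to be tested. Igfbp7 had 5.28 to 12.8 CPM and 7.19 to 12.5 CPM, and its log2 change was 0.18 (adjusted p = 0.809, edgeR quasi-likelihood test). The calls of the other 3 members were kept, with log2 0.98 for Igf1r (adjusted p = 4.92e-05), -1.79 for Igfbp5 (0.000370) and -1.04 for Igf1 (0.000981). The Igf1 fall was larger than with all cells (log2 -0.51). In Th3, the label with thyrocyte, C cell and muscle markers, 0 of 3 members were called by edgeR (1 at an unadjusted p under 0.05, Igfbp5), beside 5.03% of all genes. Igfbp5 had 93.6, 127 and 72.1 CPM there in RW and 13.3, 0 and 0 CPM in aN1aN2 (1 UMI in all, adjusted p = 0.0991).

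**Figure D5:**
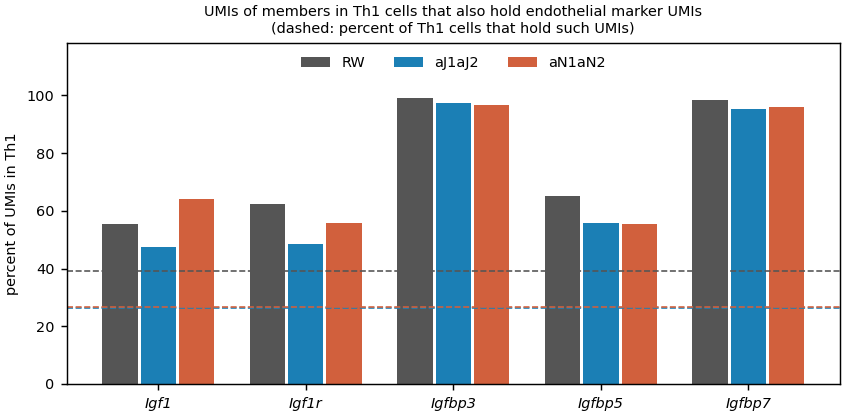
Percent of the UMIs of each member in Th1 cells that came from cells with at least 1 endothelial marker UMI, by antibody group; dashed lines give the percent of Th1 cells that are such cells (39.3% in RW, 26.3% in aJ1aJ2, 26.7% in aN1aN2). Igfbp3 and Igfbp7 stand at 95.3% or above in every group, and Igf1, Igf1r and Igfbp5 between 47.4% and 65.1%. The dashed lines are shares of cells and not of UMIs, and cells with more UMIs are more likely to hold a marker UMI.

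After ligand blockade (aJ1aJ2), 2 of 46 pairs of a label and a member were called against RW, in 10 labels, and 14 had an unadjusted p under 0.05. Few genes of any kind were called in this comparison. The share of all genes was 1.43% in EC1, where 0 of 6 members were called, 0.0618% in EC3 (0 of 7), 0.903% in EC4 (0 of 4) and 0.612% in Th1 (0 of 5). It was 0% in M (0 of 2), S (0 of 5), T1 (0 of 2) and Th3 (0 of 3). In F, 1 of 7 members was called beside 0.579% of all genes, and in EC2 1 of 5 beside 1.91%. The F call was Igfbp3, with the sample values given above and a 2.83-fold rise (log2 1.50, SE 0.28, adjusted p = 0.0181, edgeR quasi-likelihood test). It was lost without RW sample 1 (adjusted p = 0.0601), RW sample 2 (0.117), aJ1aJ2 sample 1 (0.0540) or aJ1aJ2 sample 4 (0.0708), and without the 5% of cells with most UMIs (0.366). Over these alternatives and the others, apart from the block on replicate numbers given in the closing section, the log2 change ran from 0.95 to 1.69. The EC2 call was Igfbp7 (a 1.75-fold fall, log2 -0.81, SE 0.17, adjusted p = 0.0246). It was lost without RW samples 1 or 2, aJ1aJ2 samples 3 or 4 or aN1aN2 sample 1 (adjusted p of 0.0571 to 0.174), with at least 10 cells a sample (0.0606), with only RW and aJ1aJ2 in the fit (0.0696) and without the 5% of cells with most UMIs (0.0534), and 9 of 20 alternatives kept it. Lymphatic markers did not overlap between RW and aJ1aJ2 in either label, with 166 to 204 CPM and 138 to 162 CPM in F and 29.5 to 51.9 CPM and 54.3 to 438 CPM in EC2, and their part in these 2 calls was not tested. The number of member calls was 2 without RW sample 1 (both in S, from 1 RW sample), 0 without RW sample 2, 7 without RW sample 3 (4 of them in S, from 1 RW sample), 6 without aJ1aJ2 sample 1, and 1 without aJ1aJ2 sample 3, aJ1aJ2 sample 4 or aN1aN2 sample 1.

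The RW and aJ1aJ2 samples fall into the same title sets, which were tried in fits of these 2 groups alone. Without a set term, the fit of the 2 groups called 1 pair, Igfbp3 in F (log2 1.51, adjusted p = 0.00524 by edgeR, beside 0.332% of all genes). With the set as a term as well, 3 pairs outside the label S were called. Igfbp3 in F was among them (log2 1.49, adjusted p = 0.00107), beside 0.943% of all genes. The others were Igfbp3 (log2 -1.34) and Igfbp7 (log2 -0.88) in Th1, beside 1.19% of all genes. In EC2 all RW and aJ1aJ2 samples with enough cells came from 1 set, so the term could not act there. In the set of RW samples 1 and 2 and aJ1aJ2 samples 3 and 4 alone, 8 pairs outside S were called. These were Igfbp3 in F (beside 1.06% of all genes) and in EC4 (1.76%), and Igf1r, Igfbp3 and Igfbp7 in both EC1 (6.75%) and Th1 (5.70%). In EC1 the Igf1r change was then 0.89 (adjusted p = 0.000837), that of Igfbp3 -0.68 (0.000491) and that of Igfbp7 -0.42 (0.0228). Both fits called 4 more members in S, but there they set 1 RW sample against 2 aJ1aJ2 samples with no other group to give the spread, and 40.6% and 39.1% of all genes of S were called. Those calls are not used. Several marker lists differed without overlap between RW and aJ1aJ2 in these labels. In EC1, macrophage markers summed to 93.9 to 241 CPM in RW and 28.3 to 47.3 CPM in aJ1aJ2, the dissociation response list to 894 to 1139 CPM and 556 to 851 CPM, and mural markers to 64.7 to 212 CPM and 44.0 to 64.6 CPM. In EC4, Schwann and nerve markers summed to 44.1 to 800.1 CPM and 0 to 38.0 CPM, fibroblast markers to 28.2 to 44.5 CPM and 46.9 to 56.9 CPM, and lymphatic markers to 193 to 273 CPM and 308 to 456 CPM. In Th1, Schwann and nerve markers summed to 246 to 280.1 CPM and 170.4 to 229 CPM. The part of these lists in the calls was not tested.

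Some differences not called in the fit of all samples were large. In the Schwann-marked label S, Igfbp6 had 1132 and 3078 CPM in 2 RW samples and 45.5 and 208 CPM in 2 aJ1aJ2 samples (log2 -4.04, SE 0.80, adjusted p = 0.208). Igfbp4 had 458 and 202 CPM and 68.2 and 48.9 CPM there (adjusted p = 0.371). Neither gene's groups overlapped. Leaving out a RW sample leaves 1 in S, with no other group, so that no test of these fits is given; the log2 change of Igfbp6 was -3.11 without RW sample 3 and -4.58 without RW sample 1. With both RW samples, Igfbp6 was called by DESeq2 (adjusted p = 0.000324) and with no filter on low counts (6.77e-06), and Igfbp4 with no filter (0.0383). Schwann markers in S summed to 14283 to 34824 CPM in RW and 30854 to 32797 CPM in aJ1aJ2, and fibroblast markers to 2646 to 4726 CPM and 1660.3 to 6313 CPM. Without overlap, the dissociation response list summed to 247 to 421 CPM in RW and 489 to 551 CPM in aJ1aJ2, endothelial markers to 111 to 202 CPM and 48.9 to 91.0 CPM, and macrophage markers to 18.3 to 80.4 CPM and 147 to 1376 CPM. Their part in the Igfbp4 and Igfbp6 differences was not tested. In Th1, Igfbp3 had 71.5, 105 and 74.7 CPM in aJ1aJ2, below all RW samples (adjusted p = 0.109), in the cells whose endothelial transcripts are described above. In macrophage-marked cells, which the aN1aN2 samples had too few of for a test, Igf1 had 115, 307 and 43.8 CPM in RW and 191, 207 and 244 CPM in aJ1aJ2 (log2 0.33, SE 0.52), with overlapping groups and no call.

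Set directly against aJ1aJ2, aN1aN2 differed in 12 of 42 pairs, 6 up and 6 down, in 8 labels, or 28.6% of pairs beside 10.9% of all genes weighted by label. The choice of the members with earlier results known limits this count as well. The share of all genes called was 16% in F (4 of 7 members), 13.5% in EC1 (2 of 6), 10.5% in EC2 (1 of 5), 1.27% in EC3 (1 of 7), 17.2% in EC4 (1 of 4) and 22.3% in Th1 (2 of 5). It was 4.05% in SM (1 of 5) and 1.44% in Th3 (0 of 3). Igf1r was higher after aN1aN2 in EC1 (log2 0.83), EC4 (1.06), F (0.94) and Th1 (0.57). Of these, F was lost without aJ1aJ2 sample 1 or any aN1aN2 sample (adjusted p of 0.0511 to 0.125), and EC1 without aN1aN2 sample 3 (0.0679). Over all alternatives, the Igf1r call was kept in 11 of 18 in F and in 17 of 19 in EC4. Igfbp3 was higher in F (log2 3.03, SE 0.27, adjusted p = 5.32e-07). Igfbp5 was lower in F (-3.07), EC3 (-2.72) and Th1 (-1.53). Igfbp7 was lower in EC1 (-0.61), EC2 (-0.90) and F (-0.78), the last not without aN1aN2 sample 2 (adjusted p = 0.0903). The Igfbp7 call in F was kept in 16 of 18 alternatives. Of 8 marker lists, 6 did not overlap between these groups in EC1, 6 in EC3, 4 in EC4, 2 in F (macrophage and mural), 1 in EC2 (endothelial) and 1 in Th1 (Schwann and nerve), and their part in these differences was not tested.

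The mural-marked label SM had enough cells in only 1 RW sample, and so it was tested only between the antibody groups. Igfbp4 had 967 CPM in that RW sample, 1393 and 697 CPM in 2 aJ1aJ2 samples and 3383, 2456 and 3752 CPM in aN1aN2. All aN1aN2 samples were above all others, a 3.06-fold difference from aJ1aJ2 (log2 1.61, SE 0.30, adjusted p = 0.000293, edgeR quasi-likelihood test). An Igfbp4 UMI was found in 46.0% of 113 SM cells in aJ1aJ2 and in 72.5% of 91 in aN1aN2, and thinned to 1000 UMIs in 37.3% and 77.9%, with 35 and 31 shallower cells left out. Mural markers in SM summed to 24769 to 30826 CPM in aJ1aJ2 and 23953 to 35490 CPM in aN1aN2, so those ranges overlapped. Fibroblast markers in SM summed to 745 to 1833 CPM in aJ1aJ2 and 138 to 367 CPM in aN1aN2, without overlap, and their part in the Igfbp4 difference was not tested. Igfbp5 did not separate in SM, with 1954 and 2240.1 CPM and 2266, 1283 and 1521 CPM (log2 -0.31, adjusted p = 0.683).

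Whether a member's change differed between labels was tested for F against EC1 and F against EC3, in an edgeR quasi-likelihood fit of both labels with the sample as a block. This test was added after the data were seen. The change of Igfbp3 after aN1aN2 was larger in F than in EC1 by 4.61 on the log2 scale (SE 0.26, adjusted p = 2.23e-14). It was larger than in EC3 by 5.52 (SE 0.38, adjusted p = 6.67e-10). Igfbp3 was the 1 member called against EC1 among the 6 that passed the filter in both labels, beside 5.67% of all genes. Igfbp6 did not pass in EC1, with 6 UMIs in RW and 10 in aN1aN2, but was called as well (log2 -3.19, SE 0.76, adjusted p = 0.00769). The shares given with these tests cover all genes of the joint fit, also those that passed in 1 label only. Against EC3, Igfbp3 and Igfbp4 were called of 7, beside 3.23%. The Igfbp4 change in F minus that in EC3 was -1.74 (SE 0.38, adjusted p = 0.00805), a difference not called without aN1aN2 sample 2 (-1.30, adjusted p = 0.0977). The Igfbp7 changes in F and EC1 were not shown to differ (log2 -0.35, SE 0.19, adjusted p = 0.341), nor were those of Igf1r (log2 -0.51, SE 0.28, adjusted p = 0.338). After aJ1aJ2, Igfbp3 again differed between F and EC1 (1.93, SE 0.26, adjusted p = 5.95e-05), the 1 member called of 6, beside 0.471% of all genes. Between F and EC3 0 of 7 were called, beside 0%, and Igfbp3 had a difference of 1.18 there (unadjusted p = 0.00686, adjusted p = 0.476).

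The other genes of the pathway were taken from a list of 49, of which 42 passed the filter in at least 1 label. After aN1aN2, 38 of 147 pairs of a label and a gene were called against RW, 30 up and 8 down, in 25 genes, and the median log2 change over all 147 pairs was 0.20. These are 25.9% of the pairs, beside 20.4% of all genes when each label is weighted by its pairs, so the count is near the general share. The genes of the PI3K, Akt, FoxO and mTOR step were called in 18 of 80 pairs, all upward, or 22.5% beside 19.3% of all genes (9.70% called upward). Those of the binding protein proteases and their inhibitors were called in 5 of 10 pairs, all downward, beside 22.8% of all genes. Other receptors were called in 4 of 10 (beside 19.8% of all genes), the growth hormone arm in 4 of 15 (22.1%) and the receptor adaptors in 6 of 29 (21.6%). Foxo3, a transcription factor that Akt holds inactive, rose in Th1 from 34.1 ± 8.64 to 109 ± 7.54 CPM (SD, n = 3; log2 1.68, SE 0.18, adjusted p = 6.01e-06 by edgeR). Ghr, the growth hormone receptor gene, rose in Th1 from 13.7 ± 0.967 to 32.6 ± 2.84 CPM (log2 1.28, SE 0.18, adjusted p = 7.94e-05). Insr, the insulin receptor gene, rose in EC3 (log2 1.81, SE 0.25, adjusted p = 0.000646). Htra1, a secreted protease that can cut IGF binding proteins, fell in F from 562 ± 138 to 150.1 ± 46.7 CPM (log2 -1.94, SE 0.25, adjusted p = 2.08e-05). Stc1, whose product inhibits the protease PAPP-A, fell in EC4 from 359 ± 59.5 to 57.2 ± 27.7 CPM (log2 -2.70, SE 0.34, adjusted p = 8.71e-07).

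After aJ1aJ2, 0 of 168 pathway pairs were called against RW by edgeR and 0 by DESeq2, while 16 had an unadjusted p under 0.05 in edgeR. The count was 3 without RW sample 3 and 5 without aJ1aJ2 sample 1. Between aN1aN2 and aJ1aJ2, 21 of 160 pairs were called, 12 up and 9 down, or 13.1% beside 13.2% of all genes. That count was 8 without aN1aN2 sample 2 and 13 without aN1aN2 sample 3. The log2 differences were 1.23 for Foxo3 in Th1, 1.23 for Ghr in Th1, -1.39 for Htra1 in F, -1.71 for Stc1 in EC4 and -0.85 for the adaptor gene Grb10 in Th1.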

How the data were processed

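The data were 9 droplet libraries (3′ kit version as the labels' protocols give it) from pooled thyroids. Per the submitters' processing notes, Cell Ranger and GRCm38 were used; versions and cell filters are not given in the sources used here. The authors deposited raw counts, as whole UMI counts per gene and cell, with a table of cell labels, whose derivation is not given in the sources used here. In 2619 lines of that table an unquoted comma shifted the columns, which was corrected. Gene symbols were matched for 52403 of 52636 identifiers, and the unmatched ones held 0.0293% of UMIs. Libraries held 3013324 to 11880793 UMIs.

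Counts were summed per sample and label where a sample had at least 20 cells. edgeR 4.0.16 in R 4.3.3 (filterByExpr, TMM, quasi-likelihood F test, 3 groups in 1 fit per label, at least 2 samples a group) was run over all genes, with Benjamini-Hochberg adjustment and a threshold of 0.05. DESeq2 1.42.0 was an alternative, beside other filters, cell minimums, depths, title sets and leaving out each sample. No doublet caller was run; leaving out the 5% of cells with most UMIs was an alternative. Where leaving out a sample left 1 in a group, that sample was assumed to vary like the other groups; in S, with 2 samples in each of 2 groups, such fits were not used as tests. The fits were tested on simulated counts. Named pathway genes were at most 6 per contrast, by adjusted p, and the 3 genes most like a member were named; some genes that these rules select are not reported here. The members and lists were chosen with earlier results of these data known. Nothing in the labels says that samples of a group came from separate experiments. Protein sequences were not analysed here.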

Additional observations from a re-analysis of the deposited data

Results flagged for a closer look

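Among members that passed the filter in both labels, the change differed between labels in 4 cases by a test of the difference itself. The test was an edgeR quasi-likelihood fit of both labels with the sample as a block. Igfbp6 did not pass in EC1, and its change in F minus that in EC1 was also called after aN1aN2 (log2 -3.19, adjusted p = 0.00769). The Igfbp3 change in F minus that in EC1 was 1.93 on the log2 scale after aJ1aJ2 (adjusted p = 5.95e-05) and 4.61 after aN1aN2 (adjusted p = 2.23e-14). The Igfbp3 change in F minus that in EC3 was 5.52 after aN1aN2 (adjusted p = 6.67e-10). For Igfbp4, the change in F minus that in EC3 was -1.74 after aN1aN2 (adjusted p = 0.00805), and -1.30 (adjusted p = 0.0977) without aN1aN2 sample 2. Both antibody comparisons share the RW samples, and groups of 3 samples were not tested for a sample far from the others.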

How the results depend on the processing

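Of the 34 called pairs of a label and a member, 13 were called in every alternative, 20 in every fit that left out 1 sample, and 33 kept their direction throughout. The exception was Igfbp7 in Th1 after aN1aN2, at 0.18 (log2) without cells holding an endothelial UMI. The uncalled Igfbp6 difference in F between aN1aN2 and aJ1aJ2 (log2 -0.15) ran from -0.44 to 0.019 over the fits that left out 1 sample, with 0.019 without aN1aN2 sample 2, and was 0.069 without the 5% of cells with most UMIs. Unless stated, the cause of a change was not tested. The 2 member calls of aJ1aJ2 against RW became 7 with only these groups fitted and the title set as a term (4 of them in S), 1 with at least 10 cells, 1 with at least 50 cells, 10 with no filter on low counts, 1 with only the 2 groups compared, 12 in title set B alone (RW samples 1 and 2, aJ1aJ2 samples 3 and 4; 4 of them in S) and 0 without the 5% of cells with most UMIs. The 20 calls of aN1aN2 against RW became 11 with at least 50 cells, where fewer samples were left. The 12 calls of aN1aN2 against aJ1aJ2 became 6 with at least 50 cells and 19 with no filter. Pathway calls of aJ1aJ2 against RW (0) became 3 with only these groups fitted and the title set as a term, 1 with at least 50 cells, 6 with no filter and 7 in title set B alone. The 21 pathway calls of aN1aN2 against aJ1aJ2 became 10 with DESeq2. Leaving out each sample gave 0 to 7, 15 to 21 and 10 to 14 member calls for aJ1aJ2 against RW, aN1aN2 against RW and aN1aN2 against aJ1aJ2, and 0 to 5, 27 to 43 and 8 to 23 pathway calls. Ranking labels by their share of the members' UMIs in place of CPM left the top label the same for 1 of 8 members. The label with the highest share of cells matched that by CPM for 5 of 8 members, and for 7 after thinning. Without cells holding UMIs of another lineage, chosen after seeing the data, member calls were 2, 16 and 11. The share of all genes called also moved with the setting, for aJ1aJ2 against RW in EC1 from 1.43% to 6.75% in title set B. That share is not given for each setting or left-out sample. These counts therefore do not tell a change of the members from a change of the whole fit.

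With the replicate number as a block, member calls were 4 for aJ1aJ2 against RW, 25 for aN1aN2 against RW and 11 for aN1aN2 against aJ1aJ2, and pathway calls of the first and last were 1 and 5. The shares of all genes called in the block fits are not given here, so these counts are not read as results about the members. The Igfbp3 change in F after aJ1aJ2 was 0.10 (adjusted p = 0.986) under this block, and that of Igfbp7 in EC2 -0.84 (0.614). RW sample 3 and aJ1aJ2 sample 1 have no number in their titles and were given a level each. With number 4 also held by 1 sample, the change from RW to aJ1aJ2 then rested on aJ1aJ2 sample 3 alone, set against RW samples 1 and 2 through aN1aN2, with 1 residual degree of freedom. The titles share numbers 1 and 2 between RW and aN1aN2, but same-numbered samples did not deviate together (correlations across genes of 0.0294 and 0.0106 in F, and from -0.318 to 0.0895 over the 7 labels checked), so the numbers were not taken as a pairing. Depth limited labels with few cells: SM had 1 RW sample, S had 2 samples in each of 2 groups, and Igfbp2 could not be tested.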
